A study of Mus musculus with 15 samples.

Results

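The clustered protocadherins are cell-surface adhesion proteins encoded by the alpha, beta and gamma clusters, which lie in a row on mouse chromosome 18. Members were all probes whose gene name in the scanner files begins with Pcdha, Pcdhb or Pcdhg. There were 45 such probes of 31 genes among 41174 probes on the expression arrays, and 94 such probes among 40284 on one part of the MeDIP promoter arrays. The other part, with 40283 probes, held none.

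The series set TKO, a mouse embryonic stem (ES) cell line deficient in DNA methylation and without functional Dnmt1, Dnmt3a and Dnmt3b (the DNA methyltransferases), against J1, a wild-type mouse ES cell line. Both were cultured with serum and LIF and kept without feeder cells for 2 passages before harvest. Methylated DNA immunoprecipitation (MeDIP, a pull-down of methylated DNA with an antibody) started from 2 ug of DNA and was hybridised to 7 arrays of each of 2 parts, from cells of different passages, and RNA was hybridised to 3 arrays from the same cultures, which were deposited as 1 sample. Every array carried TKO and J1 in different dyes, so its log2(TKO/J1) was 1 replicate, and with 1 line of each genotype the p-values say nothing of how lines vary.

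In neurons the clustered protocadherins give each cell its own combination of surface proteins, with which neurites of the same cell recognise one another. In the alpha and gamma clusters each variable exon has its own promoter and is spliced to constant exons that all transcripts of that cluster share, whereas each beta gene is a single exon with no constant region. A promoter is chosen at random in each neuron with the help of Ctcf and cohesin, and silent promoters are known to carry DNA methylation placed by Dnmt3b. All members lie on chromosome 18, and their sequences are not shown here.

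On the 7 MeDIP arrays, 93.3% to 99.0% of probes passed the scanner's well-above-background test in both channels, for the part that held the members. On the expression arrays between 38.5% and 66.7% of probes were so in TKO and between 39.5% and 58.9% in J1, and replicate 3 had 8386 spots marked as uneven, against 11 and 57 on the others. Dnmt3b, which encodes a de novo methyltransferase, had log2(TKO/J1) of -2.72, -2.44 and -2.36 on the 3 arrays. Dnmt3a was at -2.49 and -2.23 and Dnmt1 at -0.89 and -1.25 on the 2 arrays where their spots were kept, so all 3 targeted genes were lower in TKO; where these probes lie relative to the deleted exons was not analysed here. Of 7 measured ES cell markers of 10 listed, 3 were lower in TKO (Sox2, Pou5f1 and Esrrb) and 0 were higher, where 15% of all tested probes were called lower and 15.5% higher.

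Few probes of the clustered protocadherins showed RNA in either line. A probe was tested when it was well above background in TKO or in J1 on all 3 arrays, which 4 of the 45 member probes were (8.89%), against 39.1% of all probes. The tested probes were 1 of 6 in the alpha cluster, 0 of 29 in the beta cluster and 3 of 10 in the gamma cluster. A further 35 member probes (77.8%) were well above background in neither line on any array, against 31.3% of all probes. No probe was named for a C-type isoform (Pcdhac1, Pcdhac2, Pcdhgc3, Pcdhgc4 or Pcdhgc5), the variants that neurons express constitutively.

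Of the 45 probes, 39 were listed by the files for no more than 1 RefSeq transcript, and 6 for several transcripts of the same cluster, which places those 6 in the shared constant exons. A shared-exon probe reads RNA from any promoter of its cluster, so its value belongs to the cluster and not to the gene in its name. There were 3 of them in the alpha cluster, 2 named Pcdha9 and 1 named Pcdha6, and 3 in the gamma cluster, all named Pcdhga7. Of the 39 other probes 1 was tested.

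In the alpha cluster 1 shared-exon probe could be tested, and its ratio was above 0 on all 3 arrays. This probe, named Pcdha9, had dye-normalised signals of 572, 379 and 867 in TKO against 230, 209 and 318 in J1 on replicates 1, 2 and 3. Every TKO value lay above every J1 value, and the probe was well above background on 3 arrays in TKO and on 2 in J1. It therefore entered the test through TKO, the line where it was brighter, so its p over the tested probes is a description and not support for a direction.

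After background correction with an offset and loess, Pcdha9 had log2(TKO/J1) of 0.52, 0.24 and 0.62 at this probe, with a mean of 0.46 ± 0.20 (SD, n = 3). In limma's test with Benjamini-Hochberg adjustment over all tested probes the adjusted p was 0.00568. With no filter on detection, so that all 45 member probes were in the fit, its adjusted p was 0.0313 and it was the 1 member called higher, where 7.11% of all probes were. Among the tested probes it was the 1 member called higher of 4, where 15.5% of all tested probes were called higher and 15% lower. In the fit of the tested probes 0 members were called lower, and 0 of the other 3 had an unadjusted p under 0.05. The size depends on the handling of the background at a dim probe: the signals themselves stood at ratios of 2.49, 1.81 and 2.73, a mean log2 of 1.21, and in the authors' deposited table the value was 1.22. With median centring in place of loess the mean was 0.38 and the call was lost (adjusted p = 0.312), and a filter that asks for both lines leaves the probe untested.

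The other shared-exon probes of the alpha cluster were too dim to test. The probe named Pcdha6 had log2 ratios of 0.09, 0.15 and 0.18, with signals of 180, 165 and 186 in TKO against 136, 78.5 and 86.9 in J1. It was well above background on 2 arrays in TKO and on 0 in J1. The second probe named Pcdha9, which crosses an exon boundary, had log2 ratios of 0.18, 0.03 and 0.14.

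All 9 ratios of the 3 shared-exon probes were thus above 0 after loess, but at the dim Pcdha9 probe the signals were lower in TKO than in J1 on replicate 2 (118 against 141) and on replicate 3 (479 against 573). The probes of single alpha transcripts, Pcdha4, Pcdha6 and Pcdha9, averaged between -0.06 and -0.01 and passed the detection filter in neither line.

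In the gamma cluster 3 probes could be tested and none passed. The 2 tested shared-exon probes named Pcdhga7 overlap each other in position and are not independent measures. The first had signals of 3931 and 2790 in TKO against 4784 and 3295 in J1 on replicates 1 and 2, and the second had 7323 and 4836 in TKO against 8281 and 5913 in J1. On each of these arrays TKO was lower than J1, but over arrays the ranges of the lines overlapped at both probes.

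Their log2 ratios were -0.23 and -0.18 at the first and -0.16 and -0.25 at the second, each with a mean of -0.21 on 2 arrays (adjusted p = 0.166 at both, limma). The spots of replicate 3 were left out as uneven. With uneven spots kept the unadjusted p was 0.0268 and 0.0397, and the adjusted p 0.0734 and 0.0982 (limma). With no filter on detection the unadjusted p was 0.0193 and 0.0229, and the adjusted p 0.0987 and 0.111 (limma). The other gamma shared-exon probe was near background and had ratios of 0.12, -0.13 and 0.07, with no common sign. Pcdhga4, a variable-exon gene of the gamma A type, was the 1 single-transcript probe that was tested, and it passed the filter through J1 alone. Its signals were 311, 211 and 237 in TKO against 420, 233 and 319 in J1, with overlapping ranges, and its log2 ratio averaged -0.11 ± 0.09 (SD, n = 3; adjusted p = 0.332, limma).

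The difference between the alpha and the gamma shared exons was not tested, since they are different probes with no common scale. The highest of the other gamma probes was Pcdhga1 at 0.06 and none of them was tested.

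No probe of the beta cluster passed the detection filter on these arrays. All 22 genes from Pcdhb1 to Pcdhb22 had probes, 29 in all, and 28 of them were well above background in neither line on any array. On replicates 1 and 2 the beta signals ran between 35.2 and 303 with a median of 59.2 in TKO, and between 41.1 and 393 with a median of 55.9 in J1. On replicate 3, the array with many uneven spots, they ran between 53.4 and 1988 with a median of 84.9 in TKO, and between 63.9 and 1058 with a median of 93.7 in J1. Its highest value, 1988 in TKO against 135 in J1 at a Pcdhb17 probe, was not well above background in either line. The probe of Pcdhb18 was the one beta probe well above background on 2 arrays in each line, with signals of 303, 174 and 177 in TKO against 393, 219 and 144 in J1. Mean log2 ratios of the beta probes ran between -0.04 at Pcdhb18 and 0.06 at Pcdhb21, and at this signal a difference between the lines was not detectable.

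The median log2 ratio over all probes of a cluster averaged 0.05 ± 0.03 for alpha, 0.01 ± 0.01 for beta and -0.01 ± 0.01 for gamma (SD of the per-array medians, n = 3). These medians are mostly of dim probes, so they describe the arrays' lower end and not the RNA of a cluster.

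Lists of genes around the clustered protocadherins were read on the same arrays, with the brightest tested probe of each gene. Of 21 measured chromatin regulators, 2 were higher in TKO (15.5% of all tested probes were) and 7 were lower (15% were), among them the Dnmt genes. Stag1, a cohesin subunit, was higher at 0.38, 0.49 and 0.41, and Rad21, another cohesin subunit, at 0.18, 0.29 and 0.47. The cohesin subunits Smc1a (-0.18), Smc3 (0.03) and Stag2 (-0.08) did not pass the test. Nipbl, the cohesin loader, was lower at -0.43 on 2 arrays (adjusted p = 0.0182, limma), so the cohesin genes had no common direction. Hdac1, a histone deacetylase, averaged -0.60 on 2 arrays and was lower (adjusted p = 0.0149, limma). Ctcf averaged -0.25 ± 0.24 (SD, n = 3) and Smchd1, which represses the clusters, 0.16 on 2 arrays, and neither passed the test.

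Of 12 measured cytoplasmic partners of the protocadherins, 3 were higher in TKO and 1 lower, where 15.5% and 15% of all tested probes were; with 12 genes nothing is read from these counts. Cyfip2 (0.38), Abi2 (0.33) and Nckap1 (0.25), parts of the WAVE complex that remodels actin, were the higher genes, and Wasf2 of the same complex was lower at -0.70 ± 0.18 (SD, n = 3). Ptk2, the focal adhesion kinase that the gamma constant region binds, averaged 0.09 and did not pass. Of the non-clustered protocadherins 2 of 13 were measured: Cdhr1, a photoreceptor cadherin, was lower at -0.40 ± 0.04 (SD, n = 3), and Pcdh1 was at -0.08 on 2 arrays. Of 4 measured classical cadherins Cdh11, a mesenchymal cadherin, was higher at 1.18 on 2 arrays, and the epithelial Cdh1 at 0.25 did not pass. The medians of the 4 lists were -0.08, 0.05, -0.24 and 0.05 in this order, beside -0.0048 over all tested probes.

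Markers of other cell types were read on the same arrays, where 15.5% of all tested probes were called higher in TKO and 15% lower. Of the neural markers, 6 of 13 were measured, 1 was higher in TKO (Nes, 0.91) and 2 were lower (Stmn2, -0.82, and Ncam1, -0.71), with a list median of -0.05. All 6 measured primitive endoderm markers of 8 listed were higher in TKO, between 1.32 and 3.86. So were all 3 measured trophoblast markers of 8, Gata3 (2.01), Krt18 (2.34) and Krt8 (2.88). The other listed trophoblast markers, Cdx2, Elf5, Eomes, Hand1 and Ascl2, had no tested probe. Of 7 measured fibroblast markers of 10, 4 were higher and 1 lower. These markers differed in both directions, and whether they have a part in the alpha shared-exon signal was not tested. On these bulk RNA arrays more cells with the RNA and more RNA per cell cannot be told apart.

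On the MeDIP arrays the ratio was log2(TKO/J1) as the dyes are labelled, with TKO in Cy5 and J1 in Cy3 on every array and no dye swap. Dye and line therefore cannot be told apart. The labelled direction is in doubt as well: Asz1, a germ cell gene whose promoter is known to carry DNA methylation in wild-type ES cells, stood at 0.65 ± 0.19 (SD, n = 7), on the side labelled TKO, and Sycp3, a meiotic gene, at 0.34 ± 0.11. The same check also read Dppa3, at 0.72 ± 0.15, and Dazl, which was lower at 0.15 ± 0.11. A positive value below means a brighter channel labelled TKO, and no direction of methylation is read from the sign.

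The files give the 94 member probes 14 gene names: 16 probes are named Pcdha1, 63 carry 12 beta names, and 15 are named Pcdhga1. By the distances to annotated starts in the files, the probes named Pcdha1 sit at the starts of Pcdha2, Pcdha4 and Pcdha7, inside the long Pcdha1 transcript, and those named Pcdhga1 at the starts of Pcdhga2, Pcdhga5 and Pcdhga12. Regions are called by these nearest starts here. A region was the run of probes of one name without a gap over 2000 bp, with at least 3 probes, which gave 3 alpha, 12 beta and 3 gamma regions; a pair of probes before Pcdha2 formed a run of its own and was not tested as a region.

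None of the 18 regions was called, a call being a mean log2 ratio of at least 0.5 on either side together with an adjusted p under 0.05. Over all 14759 regions 2.63% were called on the side labelled TKO and 0.0813% on the side labelled J1. At an unadjusted p under 0.05, 11 of the 18 differed from 0 in limma's test, as did 62% of all regions. Without the size threshold, 8 of the 18 (44.4%) had an adjusted p under 0.05 on the side labelled TKO, where 31.2% of all regions did, and 0 on the side labelled J1, where 25.5% did. These 8 depended on the background correction: with an offset and loess 4 regions passed on the side labelled TKO and 2 on the side labelled J1, and with an offset and median centring 0 passed on either side. With other settings the counts moved too: 12 and 0 with mode centring, 10 and 1 with arrays of the shared slide averaged, and 7 and 1 with the median over probes. When an array was left out they ran between 7 and 11 on the side labelled TKO and between 0 and 1 on the side labelled J1.

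By cluster, the regions with an adjusted p under 0.05 were 1 of 3 in alpha, 5 of 12 in beta and 2 of 3 in gamma, and the median region value was 0.07, 0.12 and 0.20. The mean lay above 0 in 2 alpha, 11 beta and all 3 gamma regions, 16 of the 18, and none reached 0.5. SDs over the 7 arrays ran between 0.09 and 0.29, as large as most of the means.

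In the alpha cluster Pcdha4 was the highest region, with 0.36, 0.66, 0.07, 0.32, 0.17, 0.17 and 0.28 on replicates 1 to 7. All 7 arrays were above 0 and the mean was 0.29 ± 0.19 (SD, n = 7; adjusted p = 0.00194, limma). Pcdha2 was the lowest, with -0.02, 0.03, -0.18, -0.13, 0.14, -0.41 and -0.20, a mean of -0.11 ± 0.18 and no common sign (adjusted p = 0.124). Pcdha4 lay above Pcdha2 on all 7 arrays, and the difference was not tested.

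In the beta cluster Pcdhb5 was the highest, with 0.49, 0.42, 0.18, 0.32, 0.59, -0.08 and 0.42 and a mean of 0.33 ± 0.22 (SD, n = 7; adjusted p = 0.00168, limma). Pcdhb8, Pcdhb13 and Pcdhb21 were above 0 on all 7 arrays, with means of 0.23 ± 0.10, 0.25 ± 0.14 and 0.25 ± 0.15. Pcdhb9 was the lowest, with 0.03, 0.11, -0.11, -0.41, -0.03, -0.34 and 0.04, a mean of -0.10 ± 0.20 and 3 arrays above 0 (adjusted p = 0.175, limma). The rank of Pcdhb5 depended on dim spots. With only spots well above background in both channels it was at 0.22, below Pcdhb13 (0.30) and Pcdhb21 (0.29).

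In the gamma cluster Pcdhga5 was the highest, with 0.31, 0.57, 0.16, 0.17, 0.28, 0.13 and 0.14, all above 0, and a mean of 0.25 ± 0.16 (SD, n = 7; adjusted p = 0.0018, limma). Pcdhga2 was the lowest at 0.08 ± 0.29 (adjusted p = 0.414), and its sign rests on 1 array: without replicate 5, which was at 0.63, the mean was -0.01. Pcdhga12 lay between them at 0.20 ± 0.21. With only spots well above background in both channels Pcdhga12 was the highest at 0.26, and Pcdhga5 was at 0.24.

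Over the probes of a cluster, the median ratio per array averaged 0.03 ± 0.10 for alpha, 0.11 ± 0.10 for beta and 0.14 ± 0.12 for gamma (SD, n = 7 arrays), and was above 0 on 4, 6 and 6 arrays. The 3 clusters differed from one another by about the spread over arrays, and no test of the difference was made. The arrays were centred on the median of all probes. With an offset and median centring the cluster medians were -0.23 ± 0.42, -0.12 ± 0.36 and -0.12 ± 0.41, and above 0 on 2, 3 and 2 arrays. Replicate 5 was the lowest there, at -1.12, -0.85 and -0.98.

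Single probes reached the threshold where whole regions did not. On the side labelled TKO 8 of 94 probes (8.51%) were called, 1 alpha, 7 beta and 0 gamma, and 1 probe (1.06%) on the side labelled J1. Over all 80567 probes of both parts 7.11% and 0.851% were called, so the members' shares were near the background, with brightness not matched. Without the size threshold 28 member probes had an adjusted p under 0.05 on the side labelled TKO, where 22.1% of all probes did, and 5 on the side labelled J1, where 19.7% did.

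All 8 called probes on the side labelled TKO lay before a start, between 994 and 132 bp upstream. The most even was 618 bp before Pcdhb17, with 0.76, 0.78, 0.63, 0.71, 0.75 and 0.92 on the 6 arrays where its spot was kept, a mean of 0.76 ± 0.09 (SD, n = 6; adjusted p = 0.000106, limma). Close to it was the probe 762 bp before Pcdhb13, with 0.54, 0.80, 0.80, 0.43, 0.54, 0.74 and 0.82 and a mean of 0.67 ± 0.16 (adjusted p = 0.000169). Both were above 0.4 on each array measured.

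The called alpha probe, 356 bp before Pcdha4, had 0.43, 0.99, 0.79, 0.42, 0.60, 0.62 and 0.66 and a mean of 0.64 ± 0.20 (SD, n = 7; adjusted p = 0.000308, limma). A second probe of Pcdhb13 (483 bp before the start, 0.56 ± 0.30) and 2 probes of Pcdhb21 (930 bp, 0.56 ± 0.23, and 651 bp, 0.51 ± 0.33) were also above 0 on all 7 arrays. The others were uneven: 132 bp before Pcdhb5 the ratios spread between -0.43 and 1.53 (0.75 ± 0.73), and 994 bp before Pcdhb1 between -0.29 and 1.48 (0.56 ± 0.56). These 2 probes were near background. Both channels were well above it on 0 of 7 arrays at the Pcdhb5 probe and on 2 of 7 at the Pcdhb1 probe. Single arrays carried some of these calls: without replicate 5 the probe 651 bp before Pcdhb21 fell short of the size threshold (0.39). The adjusted p passed 0.05 without replicate 1, 5 or 7 at Pcdhb5 (0.0602, 0.0516 and 0.0597) and without replicate 1 or 3 at Pcdhb1 (0.0506 and 0.0666), whose mean fell to 0.41 without replicate 2.

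The called probe on the side labelled J1 lay 283 bp before Pcdhb9, with -0.41, -0.18, -0.57, -1.16, -0.21, -1.04 and -0.09 and a mean of -0.52 ± 0.43 (SD, n = 7; adjusted p = 0.0124, limma). All 7 arrays were below 0, and without replicate 4 or 6 the mean was -0.42 or -0.44 and missed the size threshold. In the gamma cluster the highest probe was 647 bp before Pcdhga2 at 0.48 ± 0.62 (adjusted p = 0.0637), the lowest 127 bp before the same start at -0.19 ± 0.32 (adjusted p = 0.167), so both extremes of this cluster lay in one region. The lowest alpha probe was 2887 bp before Pcdha2 at -0.31 ± 0.60 (adjusted p = 0.196).

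The ratio differed with the place of a probe within its region, as did brightness, and place and brightness were not told apart. Within 1500 bp before and 500 bp after a start lay 90 of the 94 member probes. The 34 that were more than 500 bp before it had a median of 0.22 ± 0.12, the 35 within 500 bp before it 0.11 ± 0.13, and the 21 after it -0.01 ± 0.06 (SD of the per-array medians, n = 7). All probes of the same arrays had medians of 0.06, -0.04 and -0.05 in these classes. In the farthest class 14.7% of member probes and 10.3% of all probes were called on the side labelled TKO, and after the start 0 of 21 members and 3.37% of all probes. Members and all probes were not matched for brightness here, and the members of the farthest class were dimmer.

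Of the 18 regions, 16 had probes on both sides of the start, with most probes before it. In 14 of these the probes before the start averaged above those after it. The median difference over regions was 0.19 ± 0.08 on the log2 scale (SD, n = 7 arrays), above 0 on all 7, and was lowest at 0.03 on replicate 6. From the farthest class to the class after the start the medians were 0.10, 0.13 and -0.09 in alpha, 0.24, 0.08 and 0.04 in beta, and 0.27, 0.14 and -0.04 in gamma. In alpha the farthest class was thus not the highest, while in each cluster the class after the start was the lowest. The first and last alpha and gamma classes hold 6 and 3 probes.

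Brightness changed along with place. The member probes before the start had median brightnesses of 7.25 and 7.31 (mean log2 signal of both channels), in the farther and the nearer class, and those after the start 10.5. Over all probes of these arrays the medians were 9.18, 9.91 and 10.5 in the same classes. Over the 94 member probes ratio and brightness correlated at r = -0.33, and over all 40284 probes of this part at -0.343, both across probes that share arrays and dyes, so these are descriptions.

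All 8 probes called on the side labelled TKO had a brightness between 4.83 and 8.89. Of all probes with a brightness between 6 and 7, 27.9% were called on this side, and between 10 and 11, 1.76%. In steps of 1 between 4 and 9 the called members were 1 of 4, 1 of 10, 2 of 20, 3 of 21 and 1 of 15. Of all probes 14.8%, 27.3%, 27.9%, 17.4% and 11.1% were called in these steps, so the members showed no general excess at like brightness. The median ratio of all probes on these arrays was 0.30 between 5 and 6 and lower at each brighter step, down to -0.15 between 13 and 14. Under background correction with an offset and loess the means of these 8 probes lay between 0.05 and 0.32 and none was called, and none was called with that correction and median centring. The parts of the correction and of brightness in this were not told apart. The 3 distance classes then had member medians of 0.05 ± 0.04, -0.0014 ± 0.022 and 0.0033 ± 0.035 (SD, n = 7). The difference between the farthest class and the class after the start thus shrank to about the spread of a class median over arrays. Within arrays the farthest class still lay above the class after the start on all but replicate 5. Over all probes of these arrays the classes were then at 0.03, -0.02 and -0.02. With the same background correction and median centring in place of loess the classes were at -0.15 ± 0.50, -0.19 ± 0.44 and 0.0060 ± 0.046. The gradient of these means turned round, with a spread over arrays larger than its size. On replicate 5 the classes were at -1.19, -1.10 and 0.08, where the farthest class ran between -0.30 and 0.34 on the other arrays. The farthest class stayed above the class after the start on replicates 1, 3 and 4 and lay below it on replicates 2, 5, 6 and 7. The part of replicate 5 in the turn was not tested.

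RNA and MeDIP could not be set side by side gene by gene. Of the 18 genes with a tested region, 14 also had an expression probe of the same name, 12 of them beta genes, and in 0 of the 14 was that probe tested. The alpha shared exons collect transcripts from all alpha starts, of which the promoter arrays covered Pcdha2, Pcdha4 and Pcdha7.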

How the data were processed

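Per the file headers, the scanner intensity values came from Agilent Feature Extraction (8.5.1.1, or 7.5.1 for expression replicates 2 and 3; the submitters' processing notes name 8.5) and were background-subtracted and dye-normalised by the authors, linearly on MeDIP and by LOWESS on expression arrays. Log10 ratios fill the value tables that the authors deposited, and the expression table correlated with the fitted ratios at 0.922 across probes. Its median was -0.0158, with centring not given in the sources used here. The labels give each dye as either line on the expression arrays; J1 in Cy5 on replicates 1 and 3 and TKO in Cy5 on replicate 2 was taken as likely from the order of dyes in the labels and the study's text on the swapped replicate 2.

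MeDIP ratios were log2 of the deposited processed signals, centred on each array's median with no loess. Expression ratios were computed from mean and background signals with normexp (offset 50) and loess, and spots of a probe were averaged; the sign was turned so that positive means TKO. Uneven and control spots were left out. limma 3.58.1 (in R 4.3.3) tested each ratio against 0 over whole tables, with Benjamini-Hochberg adjustment; MeDIP parts were fitted apart and adjusted together. Fits were tested on simulated data. The number of arrays limits precision, and p-values measure the spread between arrays.

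Members and lists were chosen with earlier results of these data known. Named were all called members, the highest and lowest of each cluster and assay, the Dnmt genes, and up to 4 called genes per list with the largest change. Pcdhb8, Pcdhb13, Pcdhb18, Pcdhb21, Stag1, Rad21, Nipbl, Asz1, Sycp3, Dppa3, Dazl and uncalled list genes were named after their values were seen. The distance and brightness classes were also chosen then. Annotated starts were computed from distances in the files. No positions are printed (build: not given in the sources used here).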

Additional observations from a re-analysis of the deposited data

Results flagged for a closer look

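Of 35 MeDIP values checked for 1 array standing apart from the other 6, 3 did, and chance flags about 1 in 20. At the region of Pcdhga5 replicate 2 was at 0.57, where the others lay between 0.13 and 0.31. At the probe 651 bp before Pcdhb21 replicate 5 was at 1.21 and the others between 0.15 and 0.49. At the probe 647 bp before Pcdhga2 replicate 5 was at 1.78 and the others between -0.06 and 0.66. Replicate 5 had 2681 uneven spots, against 3 to 572 on the other arrays of that part; their part in these values was not tested.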

How the results depend on the processing

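The alpha shared-exon call (Pcdha9, 1 member higher in TKO), which passed the detection filter through TKO alone, was kept under the alternatives run except 2, which gave 0: normexp with median centring, and the filter on both lines, which drops this probe because J1 passed on 2 arrays. Leaving out each array gave 1 throughout, and members called lower stayed at 0. Without replicate 1 or 2, 2 of the 4 members were tested, since both Pcdhga7 probes then had 1 array. Over all probes, 2500 higher and 2409 lower became 393 and 671 with normexp and median centring, 1331 and 1151 with a dye term, 1285 and 1131 without replicate 1 and 1152 and 1142 without replicate 2. No member region was called under any alternative run with the size threshold; without it 8 were, on the side labelled TKO. Member probes called on that side went to 0 with normexp, by median centring or loess, and to 28 without the size threshold, with a range of 6 to 10 when an array was left out. On the side labelled J1 the 1 call went to 0 with both normexp settings, mode centring and the stricter background filter, to 5 without the size threshold, and ranged from 0 to 1 when an array was left out.

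Over all regions, 388 and 12 calls on the sides labelled TKO and J1 became 15 and 1 under both normexp settings, 613 and 38 with single probes allowed and 4605 and 3764 without the size threshold; those labelled J1 became 7 with mode centring and 7 without replicate 6. Over all probes, 5732 and 686 became 857 and 147 with normexp and median centring, 856 and 131 with loess, and 17828 and 15871 without the size threshold. With normexp and median centring the sign turned at the regions of Pcdha4 (-0.15), Pcdhb5 (-0.22), Pcdhga5 (-0.070) and Pcdhga2 (-0.17), and at the probes of Pcdha4 (356 bp before the start, -0.15), Pcdhb1 (994 bp, -0.24), Pcdhb5 (132 bp, -0.27), Pcdhb13 (762 bp, -0.061), Pcdhb21 (651 bp, -0.12) and Pcdhga2 (647 bp, -0.33). Pcdhga2 also turned with loess (-0.038), the stricter background filter (-0.065), the median over probes (-0.037) and without replicate 5, with a range of -0.0065 to 0.15 when an array was left out, and Pcdha2 turned when regions were not split (0.073), which merges it with Pcdha4 and Pcdha7. Neither the cause of the other turns nor replicate 5's part under normexp was tested.

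MeDIP cluster medians moved to -0.23 (alpha), -0.12 (beta) and -0.12 (gamma) with normexp and median centring. Replicate 5 was then lowest (-1.12, -0.85 and -0.98). Expression cluster medians moved to 0.25, -0.023 and -0.041 with Agilent's processed signals, and those of beta and gamma to 0.025 and 0.018 with normexp and median centring. Most expression members were at background, where a difference was not detectable. A slide-code random block was not run, as limma estimates no block correlation from 1 shared code. Averaging the shared slide, chosen after seeing the data, left 8 and 1 member probes called. Each ratio already pairs TKO with J1 on 1 array. No paired analysis was possible because of the replicate numbers themselves: the groups that share them are different array parts and are not compared.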
